A study of Mus musculus with 28 samples.

Results

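The day-night change that 3 cohorts of male mice had in common was estimated in the lateral ventricle choroid plexus from 24 of the 28 libraries of the series. Each of the 3 cohorts gave 4 day and 4 night libraries, so 12 night libraries were set against 12 day libraries, with the cohort as a block and 1 common night effect per gene. Genes were then listed by whether the night minus day change had the same sign in all 3 cohorts. The 4 young libraries taken after 6 h of sleep disruption were left out.

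Day tissue was taken at ZT 6 and night tissue at ZT 18, where ZT (zeitgeber time) counts hours from lights on. The young cohort was wild-type C57/BL6 mice of 3 to 4 months and formed batch 1. Both aged cohorts were 12 to 14 months old and formed batch 2. The J20+ cohort carried a transgene for mutant human amyloid precursor protein (mutations that cause familial Alzheimer's disease), driven by a PDGF promoter active in neurons, and the J20- cohort was wild-type littermates without the transgene. All mice were males, anaesthetised with isoflurane and perfused with buffered saline, with no other treatment recorded for these 6 groups. Age and batch cannot be told apart here, so levels were compared only within a cohort.

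The mammalian clock is a loop of transcription factors in almost every cell. Arntl (BMAL1) and Clock switch on the Per and Cry genes and the Nr1d genes, whose proteins then repress the loop, and the Nr1d proteins (REV-ERB) hold down Arntl, Nfil3 and Cry1. The choroid plexus epithelium secretes cerebrospinal fluid, moves ions and organic anions between blood and fluid, and is known to keep strong circadian rhythms of its own.

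Of 16504 genes tested, 242 passed an adjusted p of 0.05 (1.47%, edgeR's quasi-likelihood test with Benjamini-Hochberg adjustment). At night 125 were higher (0.757%) and 117 were lower (0.709%). All 242 had the same sign in the 3 cohorts, against 6743 of all tested genes (40.9%). Since the pooled effect favours genes that move alike in each cohort, that count of called genes describes the rule and is no separate evidence. The changes were mostly small. The median size was 1.55-fold among genes higher at night and 1.45-fold among genes lower at night, and 27 and 12 of them passed 2-fold. Just inside the threshold were Mab21l4 (log2 change -0.81, edgeR adjusted p = 0.0497) and Zbtb48 (0.67, 0.0498), and just outside it were Prcp (-0.41, 0.0501) and Nek5 (-0.25, 0.0515). The groups did not overlap in any of the 3 cohorts for 7 of the genes called higher and 15 of those called lower, where 0.0485% and 0.0969% of all tested genes were separated in this way. For 16 called genes no cohort was separated on its own. The labels do not say that each library came from a mouse of its own, so p-values measure the spread between libraries, which may in part be technical.

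Libraries held 14632089 to 43885898 counts. Choroid epithelium markers gave a score (the mean log2 CPM of 18 genes such as Ttr, Folr1 and Kl) of 9.07 to 10.6, the highest of the 11 cell types looked at. Dissected tissue also held brain RNA in some aged libraries. The score of 35 neuron and glia markers was 2.34 ± 0.55 (SD, n = 4) in young night and 2.38 ± 0.18 in young day libraries. It was 5.60 ± 1.18 in J20- night against 2.98 ± 1.54 in J20- day libraries, while the choroid epithelium score was 9.48 ± 0.36 against 10.3 ± 0.16. Over the 3 cohorts neither score passed an exact 2-sided permutation test within cohorts after adjustment over 13 scores (choroid epithelium -0.34, p = 0.0340, adjusted p = 0.442; neuron and glia 0.70, p = 0.242, adjusted p = 0.643). In bulk tissue, fewer cells of a type and less RNA per cell cannot be told apart.

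**Figure D1:**
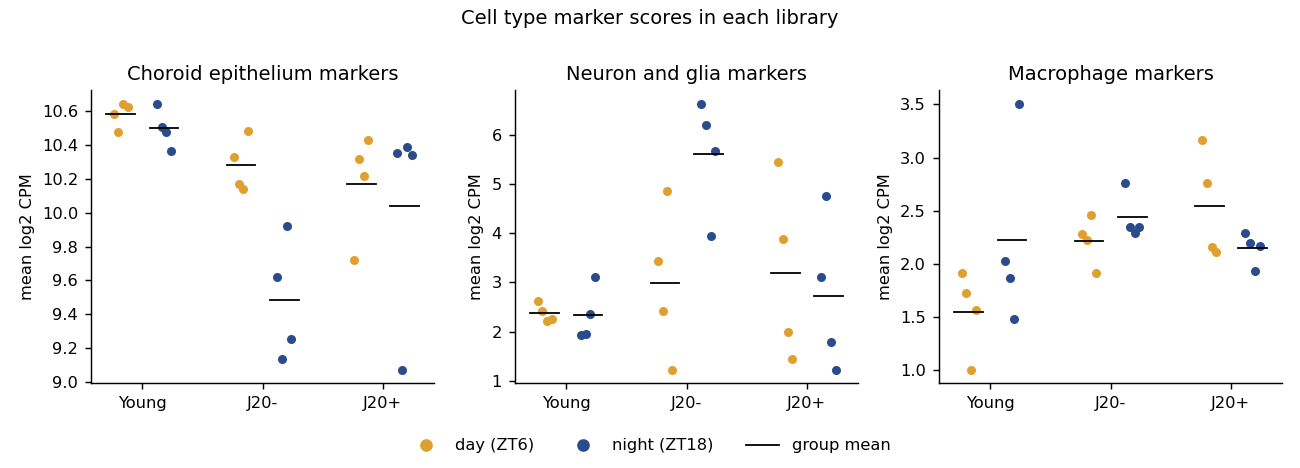
Marker scores of choroid epithelium, of neurons and glia, and of macrophages in each library (mean log2 CPM of the markers), by cohort, with day in yellow, night in blue and a line at each group mean of 4 libraries. J20- night libraries had the highest mean neuron and glia score, 5.60, and the lowest mean choroid epithelium score, 9.48.

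Core clock genes changed in both directions and by more than most other called genes, from 2.14-fold for Bhlhe41 to 4.57-fold for Nr1d1 among those named here. Among the 7 genes called under all 39 alternatives were Nfil3, Cry1, Creld2 and Slc22a8, higher at night, and Nr1d1 and Dbp, lower at night. Of the activators of the loop, 2 of 7 tested were higher and none was lower. Of the repressors, 2 of 10 were higher and 3 were lower. Of the related D-box factors, 1 of 4 was higher and 1 was lower. The median log2 change over the 3 lists was 0.38, -0.32 and -0.28, beside 0.01 over all tested genes.

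Nr1d1 (chr11:98767932-98775377), which encodes REV-ERB-alpha, stood at 12.7, 18.7, 10.8 and 13.8 CPM in the young day libraries and at 1.62, 2.28, 1.57 and 1.41 CPM in the young night libraries. It stood at 81.8, 121, 109 and 80.7 CPM in J20- day against 30.2, 34.3, 28.1 and 41.5 CPM in J20- night libraries, and at 109, 91.1, 95.8 and 88.6 CPM in J20+ day against 20, 32.9, 20.7 and 12.5 CPM in J20+ night libraries. Every night library lay below every day library of its cohort. Pooled, Nr1d1 was 4.57-fold lower at night (log2 change -2.19 ± 0.18 SE, edgeR adjusted p = 1.33e-07). Its change was -3.02 ± 0.26 SE in young, -1.55 ± 0.23 in J20- and -2.16 ± 0.23 in J20+ mice. A difference between cohorts did not pass after adjustment (edgeR 2-df test, unadjusted p = 0.00103, adjusted p = 0.310). Nr1d1 overlaps Thra, whose change was -0.07 (edgeR adjusted p = 0.790).

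Nr1d2 (chr14:18204056-18239106), the paralogue of Nr1d1, fell with it, by 1.31 on the log2 scale (SE 0.17, edgeR adjusted p = 1.30e-04). Its day libraries spanned 160 to 875 CPM (median 244) and its night libraries 62.8 to 260 CPM (median 105). Day and night were separated in young and J20- mice, and J20+ night library 1, at 196 CPM, lay within the J20+ day range.

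Arntl (chr7:113178471-113314126), a target of REV-ERB repression and the partner of Clock, moved the other way. It stood at 7.44, 7.03, 7.23 and 6.90 CPM in young day and at 41.7, 43.2, 27.9 and 48.4 CPM in young night libraries. In J20- mice it stood at 9.77, 5.96, 9.01 and 7.13 CPM by day and 18.6, 20.5, 15.5 and 17.3 CPM by night, and in J20+ mice at 15.2, 6.11, 8.09 and 5.22 CPM by day and 10.5, 18.2, 41.2 and 24.4 CPM by night. The groups were separated except in J20+ mice, where night library 1 lay below day library 1. Pooled, Arntl rose 3.25-fold (log2 change 1.70 ± 0.22 SE, edgeR adjusted p = 1.63e-04), by 2.49, 1.17 and 1.44 in young, J20- and J20+ mice. A difference between cohorts did not pass after adjustment (edgeR 2-df test, unadjusted p = 0.0214, adjusted p = 0.313). Without the young cohort the call was lost (edgeR adjusted p = 0.0558).

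Nfil3 (E4BP4, chr13:52967209-52982878), a repressor of D-box targets, had nearly the same change in each cohort, 1.70, 1.47 and 1.63. It stood between 6.11 and 10.7 CPM in the 12 day libraries (median 8.03) and between 12.1 and 36.7 CPM in the 12 night libraries (median 25.3). No night library lay as low as any day library. Pooled, it was 3.03-fold higher at night (log2 change 1.60 ± 0.13 SE, edgeR adjusted p = 8.45e-08).

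Dbp (chr7:45705100-45710203), the D-box activator that Nfil3 opposes, was the mirror image. It stood at 13.3, 21.9, 15.2 and 12.3 CPM in young day and 5.56, 6.61, 5.87 and 1.59 CPM in young night libraries. In J20- mice the values were 38.8, 73.7, 45.8 and 44.5 CPM by day against 17.1, 14.1, 17.7 and 14.7 CPM by night, and in J20+ mice 36.7, 56.0, 48.0 and 59.5 CPM by day against 23.9, 15.7, 10.1 and 11.4 CPM by night. Day and night did not overlap in any cohort. The pooled change was -1.69 ± 0.18 SE (3.22-fold lower, edgeR adjusted p = 1.05e-05), and the cohorts gave -1.68, -1.67 and -1.71. Dbp overlaps Sphk2, which had a log2 change of 0.39 (edgeR adjusted p = 0.0474), and reads in the shared stretch cannot be told apart without the strand setting of the counting.

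Of the cryptochromes, which close the negative arm of the loop, Cry1 (chr10:85131700-85185054) rose and Cry2 did not pass. Cry1 stood at 15.2 to 24.4 CPM by day (median 20.3) and 26.5 to 56.1 CPM by night (median 47.0), again with no overlap over all 24 libraries. Its log2 change was 1.14 ± 0.10 SE (edgeR adjusted p = 2.56e-07), and 1.16, 0.97 and 1.30 in young, J20- and J20+ mice. Cry2 had a log2 change of 0.09 (edgeR adjusted p = 0.547).

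Bhlhe41 (DEC2), another repressor acting on E-boxes, fell by 1.10 on the log2 scale (SE 0.15, edgeR adjusted p = 2.73e-04). Its libraries spanned 8.04 to 16.4 CPM by day and 2.64 to 8.39 CPM by night, and the groups were separated within each cohort. Its relative Bhlhe40 had a change of -0.22 (edgeR adjusted p = 0.184).

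The Per genes were less uniform. Per2 (chr1:91415977-91459351) was called higher at night, by 1.12 ± 0.25 SE on the log2 scale (edgeR adjusted p = 0.0236), with changes of 0.35 ± 0.38 SE in young, 1.40 ± 0.39 in J20- and 1.60 ± 0.39 in J20+ mice. In young mice it stood at 22, 33.3, 40.8 and 38.8 CPM by day and 42.0, 37.1, 48.3 and 44.8 CPM by night, and these overlapped. In J20- mice it stood at 41.2, 60.3, 71.2 and 49.1 CPM by day and 105, 165, 139 and 175 CPM by night, with no overlap. In J20+ mice the day values were 35.7, 66.7, 38.6 and 47.8 CPM and the night values 94.3, 333, 49.8 and 94.1 CPM. The call on Per2 was lost without J20- day library 4 (edgeR adjusted p = 0.0515), J20+ day library 3 (0.0583) or J20+ day library 4 (0.0511). It was also lost without the 5 libraries of highest neuron score, namely J20- night libraries 1, 2 and 4, J20+ day library 1 and J20+ night library 2 (log2 change 0.65, edgeR adjusted p = 0.0809), a set chosen after the data were seen. Per1 (0.60, edgeR adjusted p = 0.0784) and Per3 (-0.42, 0.161) did not pass.

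Other clock genes did not pass the pooled test. Ciart, a repressor also called CHRONO, had a change of -1.05 (edgeR adjusted p = 0.0622), of -2.00 in young, -0.40 in J20- and -0.80 in J20+ mice. Npas2, which can stand in for Clock, had 0.38 (edgeR adjusted p = 0.141). Hlf (-0.31, edgeR adjusted p = 0.159) and Tef (-0.26, 0.206) are D-box activators like Dbp. Clock itself had -0.23 (edgeR adjusted p = 0.580) and was of mixed sign, 0.19 in young, -1.09 in J20- and 0.17 in J20+ mice. Rora (-0.71, edgeR adjusted p = 0.268), Arntl2 (0.33, 0.486) and Rorb (0.41, 0.722) had wide errors. None of 10 genes for clock protein turnover passed, and of 13 other known clock outputs, 1 fell.

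**Figure D2:**
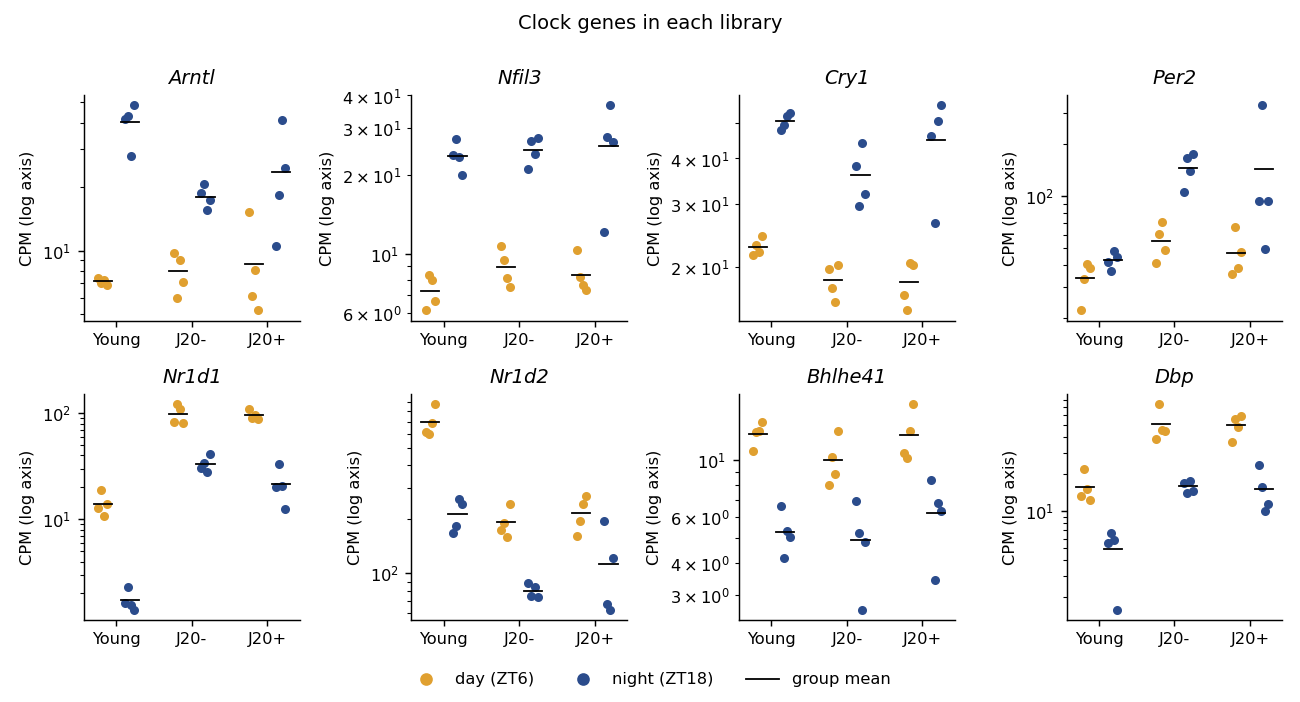
CPM on a log axis of 8 clock genes in each of the 24 libraries, by cohort, with day in yellow, night in blue and a line at each group mean of 4 libraries. Nr1d1, Dbp, Nfil3, Cry1 and Bhlhe41 have day and night separated in every cohort, and Per2 is separated in J20- mice alone.

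Promoter windows from RefSeq (GRCm38.p6), 250 bases before to 50 bases after the start, were at hand for 12525 tested genes, 100 of them called higher and 94 called lower. The E-box CACGTG, the site of Arntl with Clock, was in 11% of all windows, in 10% of those of genes called higher and in 11.7% of those of genes called lower. Both strands were searched. Windows of Cry1 and Bhlhe41 hold one, shown here 5′ to 3′ on the gene's strand with the E-box in capitals. Cry1 lies on the minus strand at chr10:85185089-85185134 and Bhlhe41 on the minus strand at chr6:145865548-145865593.
Cry1: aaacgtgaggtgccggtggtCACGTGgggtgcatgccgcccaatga
Bhlhe41: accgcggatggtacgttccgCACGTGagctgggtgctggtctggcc
Both genes carry the same letters and changed in opposite directions. The ROR element TAGGTCA preceded by an A and 2 free bases, which ROR and REV-ERB proteins share, was in 0.519% of all windows, in 2 of genes called higher (Arntl and Leo1) and in 2 of genes called lower. The D-box (TTATGTAA or TTACGTAA), the site of Dbp and Nfil3, was in 0.950% of all windows, in 3 of genes called higher and in none called lower. A match is a description of letters and not of binding.

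Outside the clock, genes of protein folding in the endoplasmic reticulum (ER) were called in 1 direction. Creld2, Manf and Sdf2l1 were higher at night, 3 of 23 tested members of the ER folding list, and none was lower. Xbp1 and Syvn1 were higher, 2 of 18 members of the list for the unfolded protein response and ER-associated degradation. Most other members did not pass. The median log2 changes of the 2 lists were -0.03 and 0.03, with 11 of 23 and 9 of 18 members above 0. Of all tested genes, 51% were above 0 and 0.757% were called higher.

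Creld2 (chr15:88819646-88826681), a secreted disulfide isomerase of the ER, stood at 15.9, 18.2, 17.6 and 14.3 CPM in young day and 36.4, 33.9, 31.0 and 25.3 CPM in young night libraries. In J20- mice it stood at 56.3, 43.2, 55.2 and 31.7 CPM by day and 66.8, 65.9, 81.3 and 81.6 CPM by night, and in J20+ mice at 43.2, 43.7, 29.7 and 32.2 CPM by day and 51.0, 101, 61.4 and 99.8 CPM by night. All 3 cohorts were separated. Its log2 change was 0.89 ± 0.12 SE (1.86-fold, edgeR adjusted p = 2.92e-04), and 0.94, 0.67 and 1.08 in young, J20- and J20+ mice.

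Manf, an ER protein that is also secreted as a trophic factor, spanned 82.3 to 163 CPM by day and 127 to 249 CPM by night, with overlap in J20- mice only. It rose by 0.77 ± 0.12 SE on the log2 scale (edgeR adjusted p = 0.00125). Xbp1, the transcription factor that the ER stress sensor IRE1 activates by splicing, spanned 96.4 to 169 CPM by day and 155 to 305 CPM by night. Xbp1 rose by 0.70 ± 0.11 SE (edgeR adjusted p = 0.00113), by 0.80, 0.35 and 0.93 in young, J20- and J20+ mice, with overlap again in J20- mice only. Gene counts do not separate its spliced and unspliced forms.

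Syvn1 (HRD1), the ubiquitin ligase of ER-associated degradation, rose by 0.74 ± 0.14 SE (edgeR adjusted p = 0.00798). Sdf2l1, a partner of the chaperone BiP, had a change of 0.53 ± 0.13 (edgeR adjusted p = 0.0365) and kept the call in 9 of 24 fits that left out 1 library. Herpud1 (0.44, edgeR adjusted p = 0.0773) did not pass. Ddit3 (CHOP) rose by 0.67 ± 0.14 (edgeR adjusted p = 0.0129), the single called gene of 18 in the integrated stress list. Its call was lost without young mice (edgeR adjusted p = 0.0998), without J20- mice (0.268) and without the 5 libraries of highest neuron score (0.0608).

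By cohort, the median of the ER folding list was 0.23 in young, -0.40 in J20- and 0.10 in J20+ mice. Without the 5 libraries of highest neuron score, the list's median was 0.17, with 18 of 23 members above 0 and 4 called. These libraries were chosen after the data were seen. Over all genes tested without them the median was 0.0071, and 119 of 16791 were called. What part brain RNA had in the values of all 24 libraries was not tested.

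Windows of 2 of these genes hold the ER stress element CCAAT, 9 free bases and CCACG, which ATF6 and XBP1 recognise. It was found in 22 of the 12525 windows (0.176%), and among genes called higher in those of Creld2 and Syvn1 (2 of 100), with none of 94 among genes called lower. The stretches are shown 5′ to 3′ on the gene's strand with the element in capitals, in reverse in Creld2. They lie on the plus strand at chr15:88819500-88819558 and at chr19:6046512-6046570.
Creld2: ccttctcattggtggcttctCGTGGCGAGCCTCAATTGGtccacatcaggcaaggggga
Syvn1: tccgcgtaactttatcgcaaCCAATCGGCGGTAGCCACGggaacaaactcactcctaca

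Cytosolic heat shock genes leaned upward at night, with 16 of 20 members above 0, against 51% of all tested genes, and a median of 0.24. Of the 20, 2 were called. Hspb1, a small heat shock protein, had 0.75 ± 0.18 SE (edgeR adjusted p = 0.0325), and Fkbp4, an HSP90 co-chaperone, 0.25 ± 0.06 (0.0480). They kept the call in 11 and 6 of 24 fits without 1 library. Other tools called more of this list, with 11 of 20 higher in DESeq2 and 10 in limma-voom. They also called more of all 16504 tested genes higher, 504 in DESeq2 and 747 in limma-voom, against 125 in edgeR.

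Cold-inducible RNA-binding genes held both directions, 1 of 12 called higher and 2 called lower. Of the 12, 10 were above 0, against 51% of all tested genes, with a median of 0.18. Cirbp (chr10:80165990-80172786), whose RNA is known to rise when body temperature falls, stood at 18.2, 22.2, 17.4 and 18.8 CPM in young day and 13.3, 15.9, 10.1 and 7.15 CPM in young night libraries. In J20- mice the values were 52.3, 85.7, 80.2 and 63.2 CPM by day and 45.0, 50.7, 40.8 and 47.6 CPM by night, and in J20+ mice 67.9, 68.3, 79.2 and 55.6 CPM by day and 40.2, 40.8, 30.3 and 21.2 CPM by night. Every night library lay below the day libraries of its cohort, narrowly so in J20- mice. Cirbp was 1.73-fold lower at night (log2 change -0.79 ± 0.13 SE, edgeR adjusted p = 0.00158). Tra2a, a splicing factor, was higher at night by 0.92 ± 0.15 SE (edgeR adjusted p = 0.00223), by 0.48, 0.82 and 1.45 in young, J20- and J20+ mice.

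**Figure D3:**
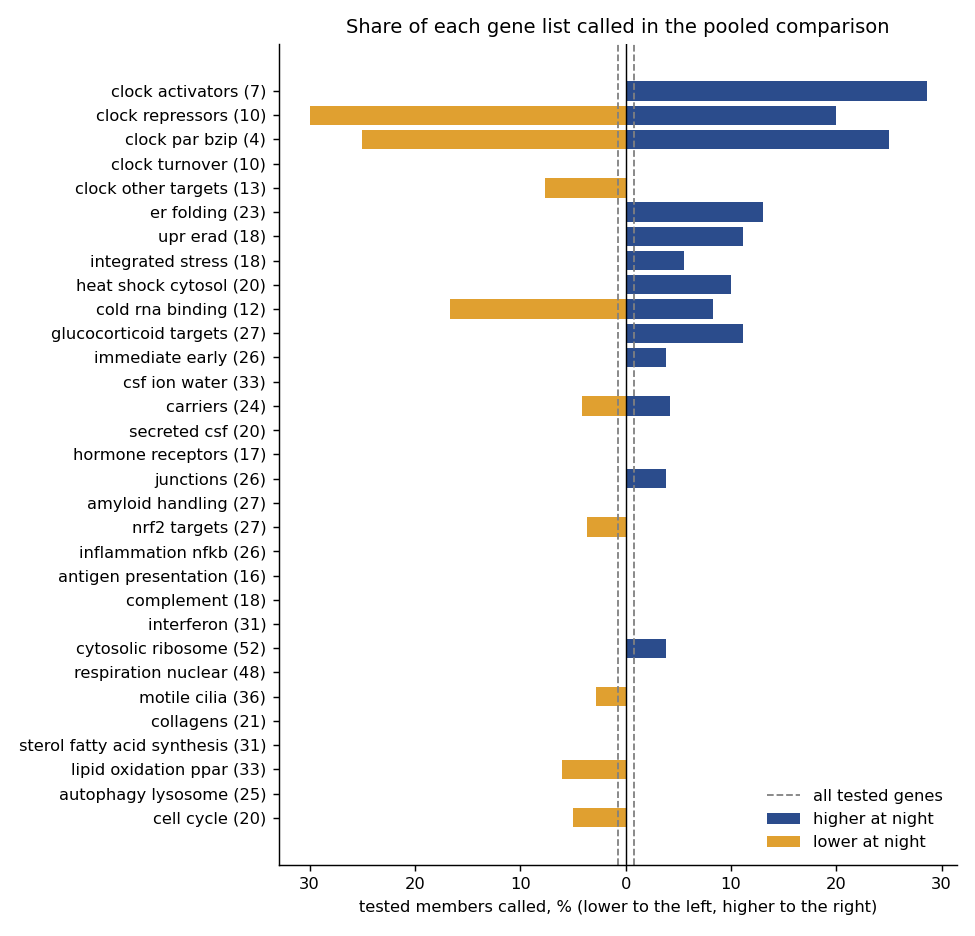
Share of the tested members of process gene lists that was called higher (blue, to the right) or lower (yellow, to the left) at night. The number tested is in brackets, and dashed lines mark the share of all tested genes (0.757% and 0.709%). The cell type marker lists and an RNA quality list of 5 nuclear RNAs are not drawn. In that RNA quality list 0 were called and 5 of 5 had a positive change, against 51% of all tested genes. Its median log2 change was 0.76, and 0.03, 1.11 and 0.09 in young, J20- and J20+ mice. The 3 core clock lists have the longest bars, and small lists move in large steps, since 1 gene of 4 is 25%.

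Glucocorticoid targets were called in 1 direction, 3 of 27 higher and none lower. Of the 27, 23 were above 0, against 51% of all tested genes, with a median of 0.21. The list's median was 0.18 in young, 0.53 in J20- and near 0 in J20+ mice, largest in the cohort whose night libraries held the most neuron and glia RNA, and 10 of 27 members had the same sign in all 3 cohorts. The part of that RNA in the list was not tested. Tsc22d3 (GILZ), a direct target of the glucocorticoid receptor, stood at 28.2, 33.2, 35.5 and 53.4 CPM in young day and 36.2, 38.4, 53.7 and 96.6 CPM in young night libraries, which overlapped. It stood at 27.5, 23.2, 25.1 and 21.6 CPM in J20- day against 58.9, 48.9, 63.0 and 70.0 CPM in J20- night libraries, and at 27.5, 27.3, 20.2 and 26 CPM in J20+ day against 42.5, 43.5, 37.8 and 46.0 CPM in J20+ night libraries, with no overlap in either. Its log2 change was 0.88 ± 0.15 SE (edgeR adjusted p = 0.00274). Sult1a1, a phenol sulfotransferase, rose by 0.69 ± 0.11 SE (edgeR adjusted p = 0.00125), with 0.29 in young mice, where the groups overlapped, and 0.83 and 0.96 in J20- and J20+ mice. Plin4, a lipid droplet protein, had 0.45 (edgeR adjusted p = 0.0494) and kept the call in 3 of 24 fits without 1 library. Per1, also in this list, did not pass.

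Immediate early genes had 23 of 26 members above 0, against 51% of all tested genes, and a median of 0.47. Ier5 alone was called (0.50 ± 0.10 SE, edgeR adjusted p = 0.0112). Fos had 1.07 ± 0.41 (edgeR adjusted p = 0.138). The list's median was 0.34, 0.88 and 0.08 in young, J20- and J20+ mice, largest in the cohort whose night libraries held the most neuron and glia RNA. The part of that RNA in the list was not tested.

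Transport genes were mostly without a call, with 1 of 24 carriers higher and 1 lower. The organic anion transporter Slc22a8 (OAT3, chr19:8591254-8611835), which clears drugs and metabolites from cerebrospinal fluid, was the gene called higher. In young mice it stood at 60.3, 63.0, 68.2 and 54.7 CPM by day and 122, 103, 113 and 63.6 CPM by night, in J20- mice at 149, 149, 167 and 134 CPM by day and 254, 246, 309 and 250 CPM by night, and in J20+ mice at 118, 158, 127 and 140 CPM by day and 257, 365, 206 and 213 CPM by night. Young night library 4 lay among the young day libraries, and both aged cohorts were separated. Slc22a8 rose 1.77-fold (log2 change 0.82 ± 0.11 SE, edgeR adjusted p = 1.30e-04), by 0.70, 0.82 and 0.94 in young, J20- and J20+ mice. The organic anion carrier Slco1a4 (OATP1A4) had a change of -0.39 ± 0.10 SE (edgeR adjusted p = 0.0424) and kept the call in 7 of 24 fits without 1 library.

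None of 33 genes for ion and water transport into cerebrospinal fluid passed the pooled test in edgeR, in either direction, nor did any of 20 secreted proteins, 17 hormone receptors or 27 genes for handling amyloid-beta. Aqp1, the apical water channel, had -0.76 ± 0.26 SE (edgeR adjusted p = 0.113), from -0.25 in young, -1.59 in J20- and -0.46 in J20+ mice. Prlr, the prolactin receptor, had -0.63 ± 0.25 (edgeR adjusted p = 0.142). Both belong to the choroid epithelium markers, of which 1 of 18 had a positive change, against 51% of all tested genes. The median of these markers was -0.09 in young, -0.74 in J20- and -0.04 in J20+ mice. Of 26 junction genes Marveld3, a tight junction protein, was called (0.41, edgeR adjusted p = 0.0344) and kept the call in 14 of 24 fits without 1 library.

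**Figure D4:**
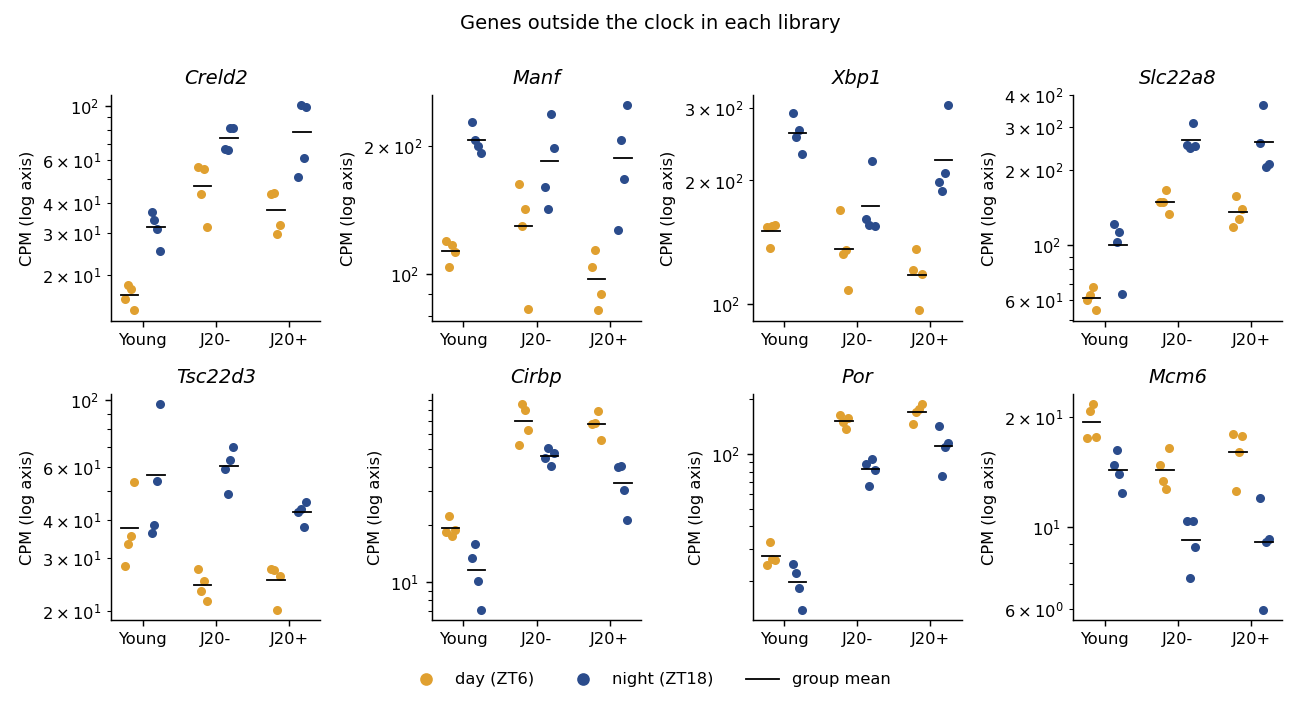
CPM on a log axis of 8 called genes outside the clock in each of the 24 libraries, by cohort, with day in yellow, night in blue and a line at each group mean of 4 libraries. Creld2, Cirbp and Mcm6 are separated in every cohort, while young night library 4 lies among the day libraries for Slc22a8.

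Metabolic and housekeeping groups gave few calls. Por, the reductase that passes electrons to cytochrome P450 enzymes, fell by 0.66 ± 0.10 SE on the log2 scale (edgeR adjusted p = 0.00129). In young mice Por overlapped, at 24.5 to 32.8 CPM by day and 14.0 to 24.8 CPM by night, and in both aged cohorts it was separated. Of 33 genes for lipid oxidation 2 were lower and none higher, among them Acadm, the medium-chain acyl-CoA dehydrogenase (-0.41, edgeR adjusted p = 0.0365), which kept the call in 12 of 24 fits without 1 library. Nqo1, an antioxidant reductase and the single called gene of 27 Nrf2 targets, had -0.58 (edgeR adjusted p = 0.0283). It kept the call in 17 of 24 such fits. None of 48 nuclear genes of respiration was called.

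Ribosomal protein genes leaned upward together, 45 of 52 above 0, against 51% of all tested genes. Their median was 0.23, and 0.20, 0.31 and 0.14 in young, J20- and J20+ mice. Of the 52, 2 were called higher and none lower. Rps29, a protein of the small subunit, was among them (0.50, edgeR adjusted p = 0.0404) and kept the call in 8 of 24 fits without 1 library. DESeq2 called 17 and limma-voom 18 of the list higher, beside 504 and 747 of all 16504 tested genes.

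Mcm6, a subunit of the replicative helicase and the single called gene of 20 in the cell cycle list, fell in every cohort. It stood at 12.6 to 21.6 CPM by day (median 17) and 5.98 to 16.2 CPM by night (median 10.4), separated within each cohort. Its log2 change was -0.63 ± 0.10 SE (edgeR adjusted p = 0.00197). Npnt (nephronectin), a basement membrane ligand of integrins, fell by 1.16 ± 0.23 SE (edgeR adjusted p = 0.0112), by 0.58 in young, 1.94 in J20- and 0.99 in J20+ mice. Its lowest value, 3.54 CPM, was in J20+ night library 2, the library with the lowest choroid epithelium score.

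Among the remaining genes with the smallest p-values, several had small changes. Eef2k, the kinase that slows translation elongation, had -0.42 (edgeR adjusted p = 0.00287), Ino80, a chromatin remodeller, -0.36 (0.00197), Cwc27, a spliceosomal cyclophilin, -0.41 (0.00142), Trdmt1, an RNA methyltransferase, -0.52 (0.00283) and Fam118a -0.36 (0.00278). Leo1, a subunit of the PAF1 transcription complex, had 0.46 (edgeR adjusted p = 0.00274) and Unc13b, a vesicle priming protein, 0.57 (0.00560). Larger were Tmem232 (-1.07, edgeR adjusted p = 5.08e-04), Dazl (-0.94, 0.00353), Ifit1bl1 (-0.98, 0.00335), Osgin1 (0.96, 0.00353), Plk5 (0.92, 0.00353) and Lonrf3 (1.22, 0.00600). Ifit1bl1 shares its locus and much of its sequence with other Ifit genes, so its count is uncertain.

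**Figure D5:**
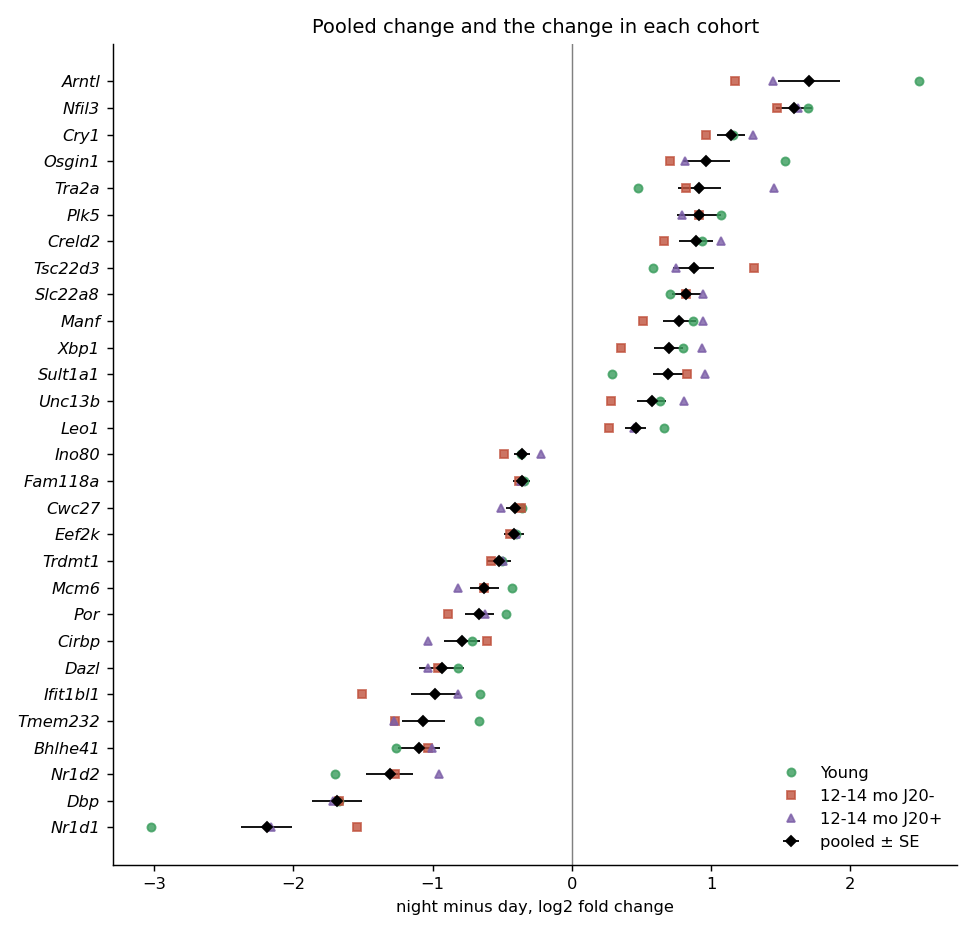
Night minus day log2 change of genes named for the smallest p in each direction, pooled (black diamonds, bars are ± 1 SE) and in each cohort (coloured symbols). Dbp, Nfil3 and Eef2k have the 3 cohorts close together, and Nr1d1 and Arntl have the young cohort farthest from 0.

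The cohorts were then compared with each other. The test of a difference in the day-night change between cohorts called 0 of 16504 genes in edgeR (0%), with 2347 at an unadjusted p under 0.05, and 53 in DESeq2. Of the 242 called genes 13 had an unadjusted p under 0.05 for a difference, Nr1d1, Arntl, Tra2a, Npnt and Sult1a1 among them. Without J20+ night library 2 the same test called 2893 genes and without J20- night library 3 it called 10, so the count of 0 is not evidence of equal changes. J20+ night library 2 had the lowest choroid epithelium score, and J20- night library 3 had a neuron score of 2.94 where the other 3 of its group had 5.56 to 5.93. Fitted singly with a shared spread, young mice called 4 genes higher and 2 lower (0.0242% and 0.0121%), J20- mice 360 and 579 (2.18% and 3.51%) and J20+ mice 7 and 2 (0.0424% and 0.0121%). Most calls on single genes were lost when a cohort, and with it 8 libraries, was left out. Of 54 called genes that the naming rule picks, 40 lost the call without young mice, 40 without J20- mice and 17 without J20+ mice. None changed sign, but all 54 had the same sign in all 3 cohorts to begin with, so this is no separate evidence. The call was kept without any 1 cohort by 7 of the 54, including Nfil3, Nr1d1, Cry1, Dbp, Creld2 and Slc22a8. Among those lost without young mice were Nr1d2 (edgeR adjusted p = 0.0576), Arntl (0.0558), Bhlhe41 (0.0806), Per2 (0.0588), Xbp1 (0.0811), Manf (0.0811), Syvn1 (0.0757), Cirbp (0.0522), Mcm6 (0.0576) and Npnt (0.0931). Among those lost without J20- mice were Nr1d2 (edgeR adjusted p = 0.0509), Per2 (0.426), Syvn1 (0.129), Sult1a1 (0.0647), Tsc22d3 (0.255), Tra2a (0.0684), Por (0.255), Mcm6 (0.135), Tmem232 (0.116), Eef2k (0.154) and Npnt (0.448). Among those lost without J20+ mice were Xbp1 (edgeR adjusted p = 0.0522), Sult1a1 (0.0575), Tra2a (0.0522), Leo1 (0.0571), Osgin1 (0.0532), Unc13b (0.0693) and Ier5 (0.0533). Ier5 was also lost without young (edgeR adjusted p = 0.115) and without J20- mice (0.121). Leo1 (edgeR adjusted p = 0.104), Unc13b (0.122) and Eef2k (0.110) were also lost without young mice, and Osgin1 (0.101) without J20- mice. Leaving out the 5 libraries of highest neuron score ended 14 of the 54 calls. Median sizes among genes called higher were 0.58, 0.64 and 0.69 on the log2 scale in young, J20- and J20+ mice, and among genes called lower 0.43, 0.61 and 0.54.

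Each cohort was also held out, with the pooled effect fitted on the other 2 and the held-out libraries fitted alone. Only genes tested in both fits were counted, so the numbers are at or under all calls of the other 2 cohorts (21, 18 and 204). The 2 aged cohorts called 21 genes, of which 20 had the same sign in young mice (95.2%, against 62.1% of all tested genes) and 13 had p under 0.05 in the same direction (61.9%, against 5.34%). Young and J20+ mice called 17, all of which had the same sign in J20- mice (100%, against 62.1%), and 15 had p under 0.05 (88.2%, against 30.5%). Young and J20- mice called 190, of which 167 had the same sign in J20+ mice (87.9%, against 65.2%) and 47 had p under 0.05 (24.7%, against 2.28%). These shares come from libraries that did not choose the genes. Genes share libraries and are not independent replicates.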

How the data were processed

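RNA of the lateral ventricle choroid plexus was sequenced in 28 libraries, per the labels as poly(A) RNA in stranded libraries (TruSeq Stranded mRNA, NovaSeq). The authors deposited raw counts per Entrez gene in 2 tables, not normalized. Per the submitters' processing notes, the tools were featureCounts 2.0.1, Picard 2.18.2, HISAT2 2.2.1, FastQC 0.11.8, DESeq2 and cutadapt, with build mm10. Annotation, strand setting and treatment of multimapping reads: not given in the sources.

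The tables were joined by Entrez identifier (27179, of which 25275, 93.0%, had a symbol in RefSeq's GRCm38.p6 table). Genes were kept by filterByExpr over 6 groups, scaled by TMM, and tested with edgeR 4.0.16 (robust quasi-likelihood, R 4.3.3) with cohort and 1 night coefficient, and Benjamini-Hochberg adjustment at 0.05. Cohort values come from a fit with 1 coefficient per group, whose errors share 1 spread that is pooled over groups of unequal spread. SE is the log2 change divided by the square root of F. CPM is TMM-scaled, with prior count 2 on the log2 scale. Replicate numbers follow the order of the sample records and pair no mice.

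The cohorts, the 43 gene lists (32 of processes, 11 of cell type markers) and the rules were chosen with earlier results of these data known. Named genes are, among called genes with the same sign in 3 cohorts, mean log2 CPM not under 1 and no placeholder symbol, the 15 with the smallest p and the 10 with the largest change in each direction, plus all clock genes and up to 4 members of each described list by p. A few of these are left unnamed here and remain in all counts. Genes in the closing observations were chosen after their values were seen. Fitted changes of a gene set are given as counts and medians, without a test of the set.

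Alternatives were DESeq2 1.42.0, limma-voom (limma 3.58.1), upper-quartile and RLE scaling, no filter, a filter of 10 CPM in 4 libraries, marker scores as covariates, the mean of 3 cohort differences, and leaving out each cohort or library. Added after seeing the data were a GC correction (loess, span 0.3), surrogate variables (sva 3.50.0) and leaving out 5 libraries with the most neuron markers. On simulated data with 200 of 16504 genes changed, the pooled test called 138 genes, 7 of them false. It recovered 51% of 1.5-fold and 80% of 2-fold changes with 0 wrong signs. Simulated counts were independent between genes, with the same change in each cohort and no brain RNA or outlying library added. Changed genes were drawn from those above a minimum count, so these rates may not hold for the real libraries. Differences between libraries of a group exceeded counting noise in every pair.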

Additional observations from a re-analysis of the deposited data

Results flagged for a closer look

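In groups of 4 libraries, 12 values stood farther from the others than Dixon's 95% limit allows, of 198 groups checked. Chance flags about 1 in 20 groups.

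Per2 in J20+ night library 2 stood at 333 CPM, with the others between 49.8 and 94.3. Xbp1 stood at 137 CPM in young day library 2 (others 154 to 156) and at 223 CPM in J20- night library 3 (others 155 to 161). Slc22a8 in J20- night library 3 stood at 309 CPM (others 246 to 254).

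Marker scores, in log2 CPM, gave the other values. J20+ night library 2 had a choroid epithelium score of 9.07 (others 10.3 to 10.4) and an erythroid score of 1.07 (others -1.84 to -1.53). J20- night library 3 had a neuron score of 2.94 (others 5.56 to 5.93), and young day library 4 had 0.808 (others 1.53 to 1.67). J20- night library 1 had a macrophage score of 2.77 (others 2.29 to 2.35). J20+ day library 1 had a fibroblast score of 6.02 (others 4.99 to 5.05), a mural score of 3.71 (others 2.59 to 2.74) and a stromal score of 4.94 (others 3.72 to 3.81).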

How the results depend on the processing

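No called gene changed sign in any of 39 alternatives. All 242 had the same sign in the 3 cohorts, and the fits share most libraries, so kept signs are no separate evidence. In all 24 fits that left out 1 library, 98 of the 242 were called. Numbers called moved more. In the order higher and lower at night, then with the same sign in all 3 cohorts, they were 747, 680 and 1313 with limma-voom, 504, 379 and 875 with DESeq2, 319, 481 and 784 with surrogate variables, 60, 61 and 121 with the GC correction, 61, 58 and 116 without the 5 libraries of most neuron markers (88 of the 242 shared), 13, 8 and 21 without the young cohort and 12, 6 and 18 without the J20- cohort. No filter gave 74 higher and 151 of the same sign, and the 10 CPM filter gave 197 higher. The share of calls that were higher was 51.7%, 60.8% with the 10 CPM filter and 39.9% with surrogate variables.

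Leaving out 1 library gave 49 to 643 higher, 57 to 266 lower and 106 to 905 with the same sign. All calls numbered 909 without young night library 4, 473 without J20+ night library 1 and 446 without J20+ day library 1. They numbered 136 and 153 without young day libraries 1 and 3, 151, 160 and 125 without young night libraries 1, 2 and 3, 153, 129 and 111 without J20- day libraries 1, 2 and 4, 120 and 113 without J20- night libraries 2 and 4, and 154, 106 and 115 without J20+ day libraries 2, 3 and 4. The cause was not tested. The test between cohorts called 0 to 2893 genes without 1 library and 53 in DESeq2.

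Some genes without a call changed sign. Arntl2 was -0.016 and Cry2 -0.0045 with surrogate variables, Cry2 -0.050 with the GC correction, and Rorb -0.14 with the neural score, -0.70 without J20- mice and -0.058 without the 5 libraries. Clock was 0.030 with limma-voom, 0.21 without J20- mice, 0.12 with surrogate variables and 0.078 without the 5 libraries. The stromal score was 0.033 with upper-quartile scaling. Without 1 library, marker scores ran from -0.082 to 0.21 for ependyma, -0.087 to 0.22 for lymphocytes and neutrophils, -0.11 to 0.14 for endothelium, -0.068 to 0.11 for mural cells and -0.11 to 0.081 for stroma.

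No paired analysis was possible because the labels give no replicate numbers shared between groups.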

Other observations

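Further called genes were picked after their values were seen, and carry no test beyond the pooled one. Several genes of cilia were lower at night by small amounts in all 3 cohorts. They were Cfap54 (log2 change -0.75 ± 0.17 SE), Armc4 (-0.46 ± 0.09), Mns1 (-0.38 ± 0.09), Lrrc6 (-0.34 ± 0.08) and Deup1 (-0.65 ± 0.15), with edgeR adjusted p between 0.0145 and 0.0325. Of the 36 genes in the motile cilia list, Hydin alone was called (-0.56 ± 0.14, edgeR adjusted p = 0.0438). It kept the call in 8 of 24 fits without 1 library. The list's median was -0.12, so the list as a whole did not follow. Hdc was the single called ependyma marker (-0.57, 1 of 10), beside an ependyma score that differed by 0.03 between night and day.

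Of 37 replication and variant histone genes tested, 4 were called higher at night, none was called lower, and 30 had a positive change. Of all tested genes, 0.757% were called higher and 51% had a positive change. Most of the 37 did not pass. H2aj had 0.66 ± 0.14 SE and H3c11 1.16 ± 0.20, and the neighbours H2ac7 and H3c4, 847 bases apart on chromosome 13, had 1.22 and 1.14. Most histone RNAs have no poly(A) tail, and these 3 replication histones were near the detection limit, with a mean log2 CPM of -1.40 to 0.03. Uhrf1, a DNA methylation factor of dividing cells, fell by 0.56, like Mcm6.

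Secreted signals Bmp4 (0.60) and Wnt5b (0.75), the calcification inhibitor Mgp (0.53) and the tendon factor Scx (1.57) were called higher. By p, Bmp4 lay between Plin4 and Mab21l4, just inside the threshold. In J20+ night libraries Bmp4 stood at 58.7 ± 33.3 CPM (SD, n = 4), against 31.7 ± 5.0 by day. Scx stood there at 5.25 ± 4.45 CPM, against 1.88 ± 0.55 by day. In young mice Scx was low, at 0.17 ± 0.03 CPM by day and 0.60 ± 0.27 by night.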
